A study of Mus musculus with 40 samples.

Results

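The 38 genes described here encode enzymes and transporters of choline, methionine and one-carbon metabolism. They were chosen by name as known members of these pathways, and all 38 were found among the 21500 genes of the count table and among the 13993 that passed the filter on low counts. They were measured by RNA sequencing in liver of 20 mice, male C57BL/6J in 2 groups of 10. Every mouse ate CDAA-HFD, a high fat diet (60 kcal% fat) of defined amino acids with 0.1% methionine and no choline added, from 8 weeks of age. Both groups thus ate little choline and methionine, and no group on a choline-replete diet was analysed here. After 4 weeks, CDAA-HFD mice stayed on that diet and BLT1i mice received it with the compound BLT1i at 90 mg/kg for 8 weeks. Mice were 20 weeks old at sampling. What BLT1 stands for is not spelled out in the labels; it usually names a receptor of leukotriene B4. The code L_286 in the titles of the BLT1i samples is not explained either. The sample numbers in the titles run group by group, so any effect of that order cannot be told apart from treatment.

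Hepatocytes oxidise choline to betaine in mitochondria, and betaine can give a methyl group to homocysteine to remake methionine. Methionine is converted to S-adenosylmethionine, the methyl donor of the cell, and what is left after methyl transfer returns to homocysteine, which is either remethylated or passed on to cysteine. Choline also enters phosphatidylcholine through the CDP-choline (Kennedy) pathway, and liver can make the same lipid by methylating phosphatidylethanolamine, which draws on S-adenosylmethionine. Diets low in choline and methionine strain both routes, and the resulting shortage of phosphatidylcholine for lipoprotein secretion is the classical account of fatty liver in such models.

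The libraries had the character of liver. The summed level of 8 hepatocyte markers was 68250 to 84200 CPM (counts scaled to library size) in CDAA-HFD mice and 67860 to 81620 CPM in BLT1i mice. Of these 8 markers 0 passed as higher and 1 as lower, Serpina1c, a serine protease inhibitor, at 1903 ± 277 and 1589 ± 107 CPM (SD, n = 10 each; log2 fold change -0.26 ± 0.07, adjusted p = 0.0232). The 38 genes together held 0.818% to 1.02% of the counts of a CDAA-HFD mouse and 0.855% to 1.01% of those of a BLT1i mouse. The groups also differed in immediate early genes, which cells switch on within minutes of a stimulus. Of 16 such genes 12 passed as higher with BLT1i, and their summed level was 1109 to 1841 CPM in CDAA-HFD mice and 1879 to 2951 CPM in BLT1i mice, with no overlap. A score of these genes therefore nearly separates the groups, and it was used as a covariate in an alternative fit. Whole liver was measured, so fewer cells of a type and less RNA per cell cannot be told apart.

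Levels per gene length spanned a wide range. By the authors' rounded FPKM, the median over CDAA-HFD mice was 586 for Bhmt, the betaine-homocysteine methyltransferase, and 469 for Mat1a, the S-adenosylmethionine synthetase of adult hepatocytes. Gnmt, a glycine methyltransferase that disposes of surplus S-adenosylmethionine, followed at 250, Ahcy, which splits S-adenosylhomocysteine, at 228.5, and Pemt, which methylates phosphatidylethanolamine, at 141. The most abundant of the 38 transcripts per length were thus enzymes of the methionine cycle. The route by the other homocysteine methyltransferase was far lower, with a median rounded FPKM of 4 for the methionine synthase Mtr and 3 for its reductase Mtrr. Among the synthetase genes, Mat2a, the form of most other tissues, had a median of 69.0 and its regulatory subunit Mat2b one of 17. In the transsulfuration pair, Cbs had 94.5 and Cth 70.5. Mitochondrial Mthfd1l and Mthfd2l were at 1 and 3, where rounding to whole numbers leaves little resolution.

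**Figure D1:**
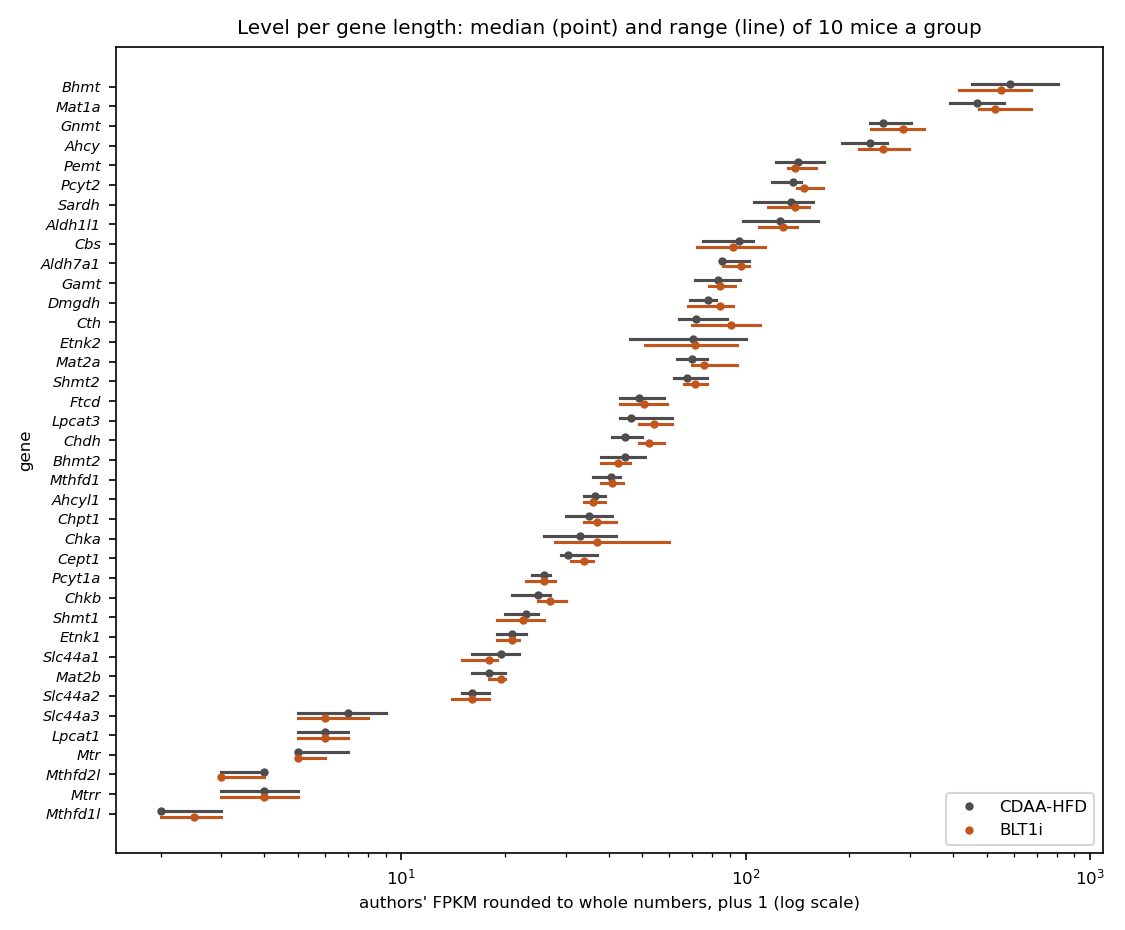
Level of each of the 38 genes per gene length, as the authors' FPKM rounded to whole numbers plus 1 on a log scale, with the median (point) and range (line) of 10 CDAA-HFD mice (grey) and 10 BLT1i mice (orange). Bhmt (median 586 in CDAA-HFD mice) and Mat1a (469) are at the top and Mthfd1l (1) at the bottom, and the ranges of the groups overlap for every gene.

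In BLT1i mice, 7 of the 38 genes passed as higher than in CDAA-HFD mice and 0 passed as lower. The genes that rose were Chdh in choline oxidation, Mat2a in S-adenosylmethionine synthesis, Cth in transsulfuration, Chkb, Pcyt2 and Cept1 in phospholipid synthesis, and Lpcat3 in phospholipid remodelling. Their changes were small, from 1.12-fold for Pcyt2 to 1.20-fold for Chdh. The 7 genes are 18.4% of the 38, beside 3.65% of all 13993 tested genes that passed as higher and 1.98% that passed as lower (Benjamini-Hochberg adjusted p of 0.05 or less in edgeR). The genes were chosen with results known, so no test was made of that share. The median log2 fold change of the 38 was 0.06, with 28 above 0 and 10 below. Over all 13993 tested genes the median was -0.01, with 6430 above 0 and 7563 below. For the 31 genes that did not pass, the 95% intervals reached from -0.41 (Bhmt) to 0.47 (Chka) on the log2 scale. No gene of the 38 had the groups fully apart, a pattern that 0.443% of all tested genes showed. With the immediate early score as a covariate, 0 of the 38 passed, and over all genes 54 were higher and 9 lower. The median log2 fold change of the 38 was then 0.09. Among the 7 called genes, whose values with the covariate are given below, the folds of Cth and Chkb shrank to near 0 and that of Cept1 shrank slightly. The folds of Chdh, Mat2a, Pcyt2 and Lpcat3 did not shrink.

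**Figure D2:**
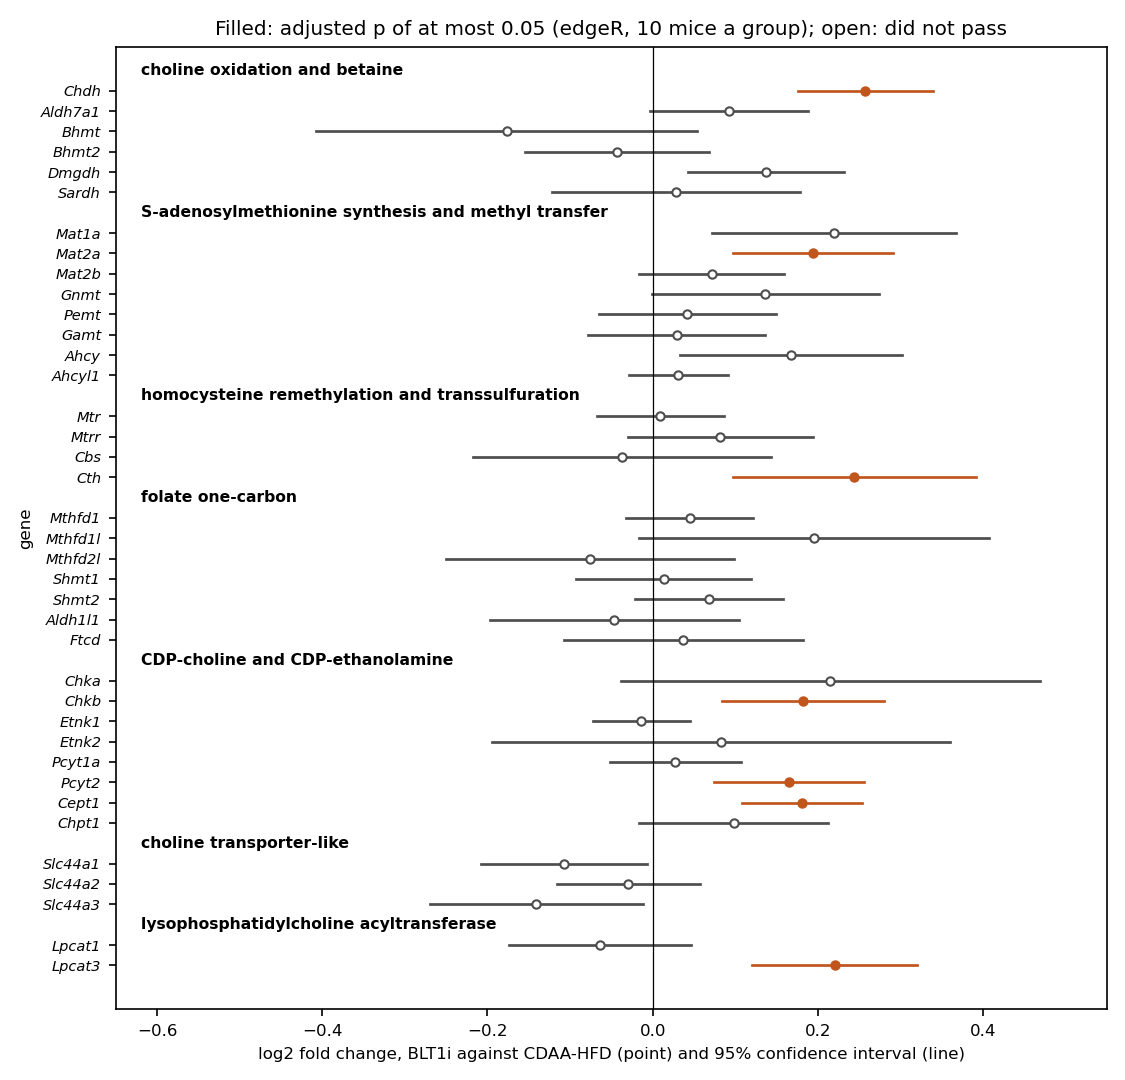
Log2 fold change of BLT1i against CDAA-HFD mice for the 38 genes by role, with its 95% confidence interval (10 mice a group). Filled orange points passed the threshold (adjusted p of at most 0.05), all 7 to the right of 0, and open grey points did not pass, among them Bhmt at -0.18 with an interval from -0.41 to 0.05.

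In choline oxidation and betaine use, 1 of 6 genes passed, beside 3.65% of all tested genes that passed as higher. Chdh, the mitochondrial choline dehydrogenase that commits choline to betaine, had 259.7 CPM in the lowest CDAA-HFD mouse, a median of 285 and 326 in the highest. In BLT1i mice Chdh had 313 CPM in the lowest, a median of 337 and 369 in the highest. Of the 10 BLT1i mice 8 were above every CDAA-HFD mouse, so the groups overlapped by little. The means were 286 ± 17.9 and 342 ± 17.9 CPM (SD, n = 10 each), a log2 fold change of 0.26 ± 0.04 (SE; adjusted p = 0.000186). Chdh stayed past the threshold with any 1 mouse left out (log2 fold change 0.24 to 0.28). With the immediate early score as covariate its log2 fold change was 0.27 ± 0.07 and the adjusted p 0.123. In the reference transcripts 8.75% of Chdh 50-base words are shared with Cacna1d, a calcium channel gene on the opposite strand.

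Downstream of Chdh, no gene passed. Aldh7a1, which can oxidise betaine aldehyde, had 213 ± 16.1 CPM in CDAA-HFD and 227 ± 16.0 CPM in BLT1i mice (log2 fold change 0.09 ± 0.05, adjusted p = 0.271). Bhmt, which spends betaine on homocysteine, was the most variable gene of the group. It ran from 1263 through a median of 1625 to 2314 CPM in CDAA-HFD mice, and from 1223 through 1565 to 1967 CPM in BLT1i mice. CDAA-HFD mice 32, 33, 34 and 39 lay at 1975 CPM or more, while the other 6 lay at 1634 CPM or less. The BLT1i range lay inside the CDAA-HFD range at its upper end, and the log2 fold change of -0.18 ± 0.11 did not pass (adjusted p = 0.412). The coefficient of variation of Bhmt was 21.7% in CDAA-HFD and 15.1% in BLT1i mice. Its paralog Bhmt2, which uses S-methylmethionine as methyl donor, had 122 ± 12.3 and 119 ± 9.02 CPM (a log2 fold change of -0.04 ± 0.05, adjusted p = 0.727).

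The last steps take dimethylglycine to sarcosine and glycine and pass the methyl groups to folate. Dmgdh, the dimethylglycine dehydrogenase, had 234.5 CPM in the lowest CDAA-HFD mouse, a median of 261 and a maximum of 275. In BLT1i mice Dmgdh ran from 227 through a median of 289 to 318 CPM. Thus 8 BLT1i mice were above every CDAA-HFD mouse, but BLT1i mouse 75 was below them all. The log2 fold change of Dmgdh was 0.14 ± 0.05 and did not pass (adjusted p = 0.0799). Without mouse 75 it passed (adjusted p = 0.00564), as it did in DESeq2. Sardh, the sarcosine dehydrogenase, had 521 ± 75.5 and 531 ± 48.6 CPM (a log2 fold change of 0.03 ± 0.07, adjusted p = 0.88).

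Bhmt2 and Dmgdh are neighbours on mouse chromosome 13, transcribed in opposite directions from starts 134 bases apart. The stretch between their annotated exons is shown because these neighbours share a start region and are compared across mice with their relative Bhmt. It lies at chr13:93674303-93674432 (GRCm38.p6, RefSeq, plus strand, the strand of Dmgdh), spans 130 bases and is 70.8% G and C. Capitals mark a GC box, searched as GGGCGG on both strands.
Bhmt2-Dmgdh: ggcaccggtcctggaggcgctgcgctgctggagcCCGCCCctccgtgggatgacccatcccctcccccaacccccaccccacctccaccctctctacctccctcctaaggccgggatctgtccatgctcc

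In S-adenosylmethionine synthesis and methyl transfer, 1 of 8 genes passed, beside 3.65% of all tested genes that passed as higher. All 8 log2 fold changes were above 0, beside 6430 of all 13993 tested genes. Mat2a, the synthetase subunit that liver cells express when they divide or run short of S-adenosylmethionine, had 190 through a median of 197 to 215 CPM in CDAA-HFD mice. In BLT1i mice Mat2a ran from 211 through 223 to 285 CPM. All 10 BLT1i mice were above the CDAA-HFD median and 7 above every CDAA-HFD mouse. Mat2a had a log2 fold change of 0.19 ± 0.05 (adjusted p = 0.0142), and without any 1 mouse it stayed past the threshold, including mouse 72, the highest. The call of Mat2a was lost on the rounded FPKM and with the immediate early score as covariate, where its log2 fold change was 0.30 ± 0.08 (adjusted p = 0.12). The transcripts of Mat2a share 9.64% of their 50-base words with Particl, an RNA transcribed from the opposite strand.

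Mat1a, the synthetase gene of differentiated hepatocytes, ran from 1422 through a median of 1748 to 2017 CPM in CDAA-HFD mice and from 1698 through 1945 to 2531 CPM in BLT1i mice. The groups overlapped widely, and 9 of 10 BLT1i mice were above the CDAA-HFD median. Its log2 fold change of 0.22 ± 0.07, close to that of Mat2a, did not pass (adjusted p = 0.0726). Mat1a passed without mouse 38 or mouse 74 (adjusted p down to 0.0396) and in DESeq2, and with the immediate early score as covariate its log2 fold change was -0.05. Mat2b, the regulatory subunit, had a log2 fold change of 0.07 ± 0.04 (adjusted p = 0.376).

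The methyltransferases and hydrolases that use the product did not pass. Ahcy had 641 ± 65.9 and 720.4 ± 80.03 CPM, with 9 of 10 BLT1i mice above the CDAA-HFD median (log2 fold change 0.17 ± 0.07, adjusted p = 0.141). Of the 50-base words of Ahcy transcripts, 66.0% also occur in Gm4737, so its count depends on how the authors divided shared reads. Gnmt had 303 ± 33.9 and 333 ± 37.6 CPM (a log2 fold change of 0.14 ± 0.07, adjusted p = 0.258). Pemt, the liver enzyme that makes phosphatidylcholine without dietary choline, had 159 ± 15.4 and 164 ± 12.1 CPM (a log2 fold change of 0.04 ± 0.05, 95% interval -0.06 to 0.15, adjusted p = 0.724). Gamt, which makes creatine and is a large consumer of methyl groups, had a log2 fold change of 0.03 ± 0.05, as did Ahcyl1, a relative of Ahcy, with 0.03 ± 0.03.

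Among the 4 genes that decide the fate of homocysteine, 1 passed, beside 3.65% of all tested genes that passed as higher. Cth, the cystathionine gamma-lyase that releases cysteine, ran from 126 through a median of 138 to 169 CPM in CDAA-HFD mice. In BLT1i mice Cth ran from 127 through 171 to 209 CPM. Thus 6 BLT1i mice were above every CDAA-HFD mouse, whereas BLT1i mouse 74, at 127 CPM, was near the lowest of that group. The log2 fold change was 0.24 ± 0.07 (adjusted p = 0.0435), just inside the threshold. The call of Cth was lost without any 1 of 13 mice (31, 32, 33, 34, 36, 37, 40, 71, 72, 73, 76, 79 or 80; adjusted p at most 0.0853) and under upper-quartile and library-total scaling, no filter and limma-voom. With the immediate early score as covariate the log2 fold change of Cth was 0.04 ± 0.12 (adjusted p = 0.95).

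Of the genes around Cth none passed. Cbs, the cystathionine beta-synthase that commits homocysteine to transsulfuration, had 242 ± 24.5 and 236 ± 41.8 CPM (a log2 fold change of -0.04 ± 0.09, adjusted p = 0.868). On the remethylation side, Mtr had 37.5 ± 2.32 and 37.7 ± 1.31 CPM (a log2 fold change of 0.01 ± 0.04, 95% interval -0.07 to 0.09, adjusted p = 0.929). Mtrr, which keeps the cobalamin of Mtr active, had a log2 fold change of 0.08 ± 0.05 (adjusted p = 0.443).

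None of the 7 folate genes passed (0 of 7), and their median log2 fold change was 0.04. Cytosolic Mthfd1, which interconverts folate one-carbon units, had 135 ± 5.83 and 139 ± 8.97 CPM (a log2 fold change of 0.04 ± 0.04). Shmt1 and its mitochondrial counterpart Shmt2, which take one-carbon units from serine, had log2 fold changes of 0.01 ± 0.05 and 0.07 ± 0.04. Aldh1l1, which removes surplus formyl groups, had 470 ± 73.5 and 455 ± 34.4 CPM (a log2 fold change of -0.05 ± 0.07). Ftcd, which draws one-carbon units from histidine breakdown, had a log2 fold change of 0.04 ± 0.07. The lowest of the group were Mthfd1l, at 7.55 ± 1.07 and 8.65 ± 1.69 CPM (a log2 fold change of 0.20 ± 0.10, adjusted p = 0.302), and Mthfd2l, at 6.05 ± 0.717 and 5.73 ± 0.819 CPM (-0.08 ± 0.08, adjusted p = 0.688).

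The CDP-choline and CDP-ethanolamine genes held 3 of the 7 calls, with 3 of 8 higher, beside 3.65% of all tested genes. Of their log2 fold changes 7 of 8 were above 0, with a median of 0.13, beside 6430 of all 13993 tested genes above 0. No test was made of these shares. Cept1, which joins CDP-choline or CDP-ethanolamine to diacylglycerol in the last step, ran from 52.0 through a median of 55.1 to 61.4 CPM in CDAA-HFD mice. In BLT1i mice Cept1 ran from 58.3 through 62.6 to 67.5 CPM. Of the CDAA-HFD mice 9 were below every BLT1i mouse, and mouse 32 was the exception. Of the BLT1i mice 6 were above every CDAA-HFD mouse. The log2 fold change of Cept1 was 0.18 ± 0.04 (adjusted p = 0.00255), and it stayed past the threshold without any 1 mouse. The call was lost on the rounded FPKM and with the immediate early score as covariate (0.16 ± 0.07, adjusted p = 0.378). Dennd2d, on the opposite strand, shares 21.9% of the 50-base words of Cept1 transcripts.

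Pcyt2, the rate-setting enzyme of CDP-ethanolamine synthesis, ran from 201 through a median of 231 to 249.7 CPM in CDAA-HFD mice and from 233 through 254 to 296 CPM in BLT1i mice. All 10 BLT1i mice were above the CDAA-HFD median, and 5 of them were above every CDAA-HFD mouse. Pcyt2 had a log2 fold change of 0.16 ± 0.04 (adjusted p = 0.0258). Its call was lost without mouse 33, 71, 72, 73 or 79 (adjusted p at most 0.0548), with library totals and with the immediate early score as covariate (0.20 ± 0.08, adjusted p = 0.381). The matching enzyme of the choline branch, Pcyt1a, had 119 ± 6.83 and 121 ± 6.93 CPM, and its log2 fold change of 0.03 ± 0.04 did not pass (95% interval -0.05 to 0.11, adjusted p = 0.76).

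The kinases that open these branches differed in their calls. Chkb, the choline kinase form most used in muscle, ran from 34.5 through a median of 42.8 to 45.4 CPM in CDAA-HFD mice and from 42.9 through 46.8 to 52.0 CPM in BLT1i mice. Of the 10 BLT1i mice 8 were above every CDAA-HFD mouse. Its log2 fold change was 0.18 ± 0.05 (adjusted p = 0.0218), and the call was lost with library totals and with the immediate early score as covariate (0.06 ± 0.08, adjusted p = 0.852). Chkb overlaps Gm44502 on the same strand, and 42.8% of its 50-base words occur there, so its count may hold reads of both. Chka, the other choline kinase, had 95.3 ± 15.7 and 111 ± 26.8 CPM, with BLT1i mouse 72 alone at 175 CPM. The log2 fold change of Chka, 0.22 ± 0.12, was as large as that of Chkb but did not pass (adjusted p = 0.352), and the difference between both was not tested.

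The ethanolamine kinases Etnk1 and Etnk2 had log2 fold changes of -0.01 ± 0.03 and 0.08 ± 0.13. Etnk1 was the steadiest of the 38 in CDAA-HFD mice, with a coefficient of variation of 2.93%, and Etnk2 the most variable at 23.1%. Chpt1, which completes phosphatidylcholine from CDP-choline alone, had 120.2 ± 12.1 and 129 ± 10.5 CPM (a log2 fold change of 0.10 ± 0.06, adjusted p = 0.351).

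Lpcat3, which returns polyunsaturated acyl chains to lysophosphatidylcholine in the endoplasmic reticulum, was the other called gene. It ran from 99.8 through a median of 106 to 134.5 CPM in CDAA-HFD mice and from 113 through 127 to 142 CPM in BLT1i mice. Of the CDAA-HFD mice 8 were below every BLT1i mouse. Only 1 BLT1i mouse was above every CDAA-HFD mouse, because CDAA-HFD mouse 36 reached 134.5 CPM. Lpcat3 had a log2 fold change of 0.22 ± 0.05 (adjusted p = 0.00727), and without any 1 mouse it stayed past the threshold. With the immediate early score as covariate it was 0.29 ± 0.09 (adjusted p = 0.193). Lpcat1, the form best known from surfactant synthesis in lung, had 21.1 ± 1.61 and 20.2 ± 1.79 CPM (a log2 fold change of -0.06 ± 0.05, adjusted p = 0.566).

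The start regions of Cept1 and Lpcat3 are shown because these called genes have an upstream stretch free of annotated exons, Cept1 at chr3:106547921-106548052 (minus strand, 132 bases, 65.2% G and C) and Lpcat3 at chr6:124662877-124663026 (plus strand, 150 bases), both GRCm38.p6 from RefSeq. Capitals mark a CCAAT box (CCAAT) or a GC box (GGGCGG), searched on both strands, where neighbouring GC boxes may overlap.
Cept1: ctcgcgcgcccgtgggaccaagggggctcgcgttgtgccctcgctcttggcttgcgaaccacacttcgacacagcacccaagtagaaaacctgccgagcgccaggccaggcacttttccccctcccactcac
Lpcat3: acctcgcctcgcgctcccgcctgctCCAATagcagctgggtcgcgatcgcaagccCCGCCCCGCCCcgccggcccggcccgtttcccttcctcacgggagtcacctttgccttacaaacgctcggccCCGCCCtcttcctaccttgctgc

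Promoter windows of 250 bases before a start were at hand for 34 of the 38 genes, and not for Mat1a, Aldh7a1, Pcyt2 or Cth. A GC box stood in at least 1 window of 27 of these genes, and in 32.7% of all 32851 windows. A CCAAT box stood in those of 17 genes (33.8% of all windows) and a TATA box (TATAAA) in those of Ahcyl1, Chkb, Ftcd and Mat2a (12.4%). A gene with several starts has several windows, so the counts of genes and the shares of windows are not on 1 scale. The AP-1 letters TGANTCA were found for Ahcy alone (6.75% of all windows). The Egr1 letters GCGTGGGCG (0.536%), the C/EBP-ATF letters TGATGNAA (3.45%) and a peroxisome proliferator response element, AGGTCA repeated after 1 free base (0.0335%), were found for 0 of the 34. A match or its lack describes these letters in these windows and no binding.

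The choline transporter-like genes were the only role group with every log2 fold change below 0, and 0 of 3 passed. Over all tested genes 7563 of 13993 were below 0, so a shared sign of 3 genes says little. Slc44a3 ran from 13.2 through a median of 17.6 to 22.0 CPM in CDAA-HFD mice and from 14.98 through 15.6 to 16.7 CPM in BLT1i mice. All 10 BLT1i mice were below the CDAA-HFD median, and they lay close together, with a coefficient of variation of 4.16% beside 13.4%. For Slc44a3 this gave a log2 fold change of -0.14 ± 0.06 (adjusted p = 0.204). Slc44a1, a choline carrier of plasma membrane and mitochondria, had 82.5 ± 8.17 and 76.6 ± 3.98 CPM (-0.11 ± 0.05, adjusted p = 0.215), with 9 of 10 BLT1i mice below the CDAA-HFD median. Slc44a2 had 55.1 ± 2.74 and 54.0 ± 4.03 CPM (-0.03 ± 0.04, adjusted p = 0.763).

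**Figure D3:**
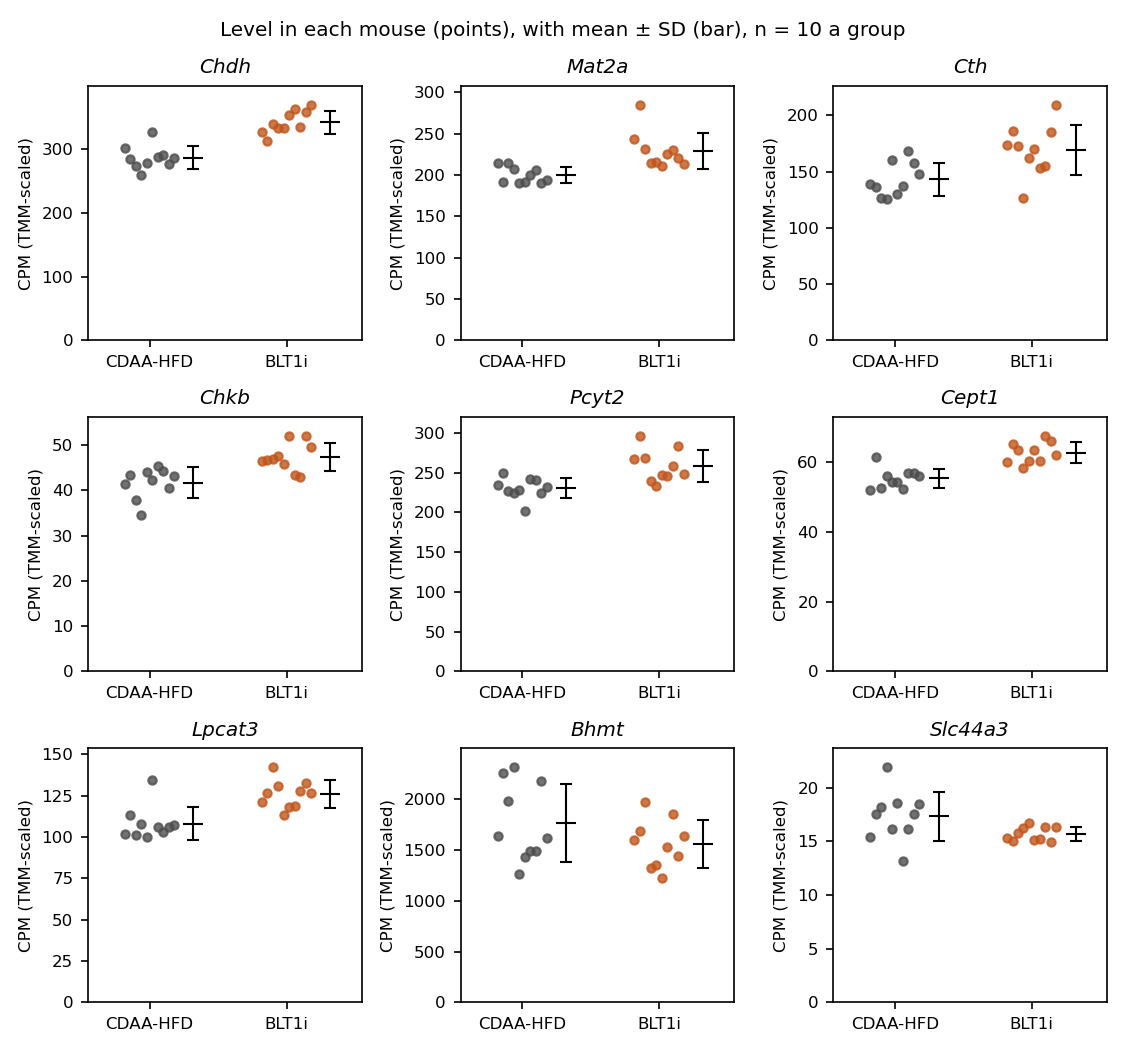
TMM-scaled CPM of the 7 called genes and of Bhmt and Slc44a3 in each mouse (points, 10 a group), with mean ± SD (bar). For Chdh 8 of 10 BLT1i mice are above the highest CDAA-HFD mouse (326 CPM), while the groups overlap widely for Bhmt, and Slc44a3 is spread more narrowly in BLT1i mice (14.98 to 16.7 CPM).

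Markers of other cells and of zones within the lobule were read beside these genes, where 3.65% of all tested genes passed as higher and 1.98% as lower. Of 9 pericentral hepatocyte markers 2 passed as higher, Cyp2e1 and Oat, and all 9 log2 fold changes were above 0. The summed level of the 9 was 7050 to 9928 CPM in CDAA-HFD and 8495 to 12250 CPM in BLT1i mice. Of 9 periportal markers 1 passed as higher, Pck1, with sums of 2811 to 4726 and 3390 to 5670 CPM, and 7 log2 fold changes were above 0. The sums overlapped between groups for both zones. None of 10 macrophage markers passed (0 of 10), nor did any of 10 stellate cell and fibroblast markers (0 of 10) or of 7 cholangiocyte markers (0 of 7). Log2 fold changes were below 0 for 7 macrophage markers, 6 stellate cell and fibroblast markers and all 7 cholangiocyte markers. Cholangiocyte sums were 677 to 979 CPM in CDAA-HFD and 601 to 887 CPM in BLT1i mice. Among macrophage markers the log2 fold change ran from -0.18 (Trem2, adjusted p = 0.0504) to 0.69 (Clec4f, adjusted p = 0.0675). Macrophage sums were 3305 to 4663 and 3527 to 4532 CPM. Endothelial markers had 2 of 8 higher, Kdr and Clec4g, with sums of 840.4 to 975 and 876 to 945 CPM. Of these 8, 6 log2 fold changes were above 0 and 2 below, among them Stab1 (-0.14 ± 0.05, adjusted p = 0.107). Leukocyte markers had 1 of 8 higher, Cd8a, with sums of 163 to 193 and 138 to 188 CPM, and 5 log2 fold changes above 0 and 3 below. Of the neutrophil markers 0 of 5 tested passed, Ly6g being too low to test. Whether zone or cell makeup had a part in the changes of the 38 genes was not tested. With a hepatocyte marker score as covariate 10 of the 38 passed as higher, Dmgdh, Aldh7a1 and Gnmt in addition to the 7. That score holds none of the zone markers or markers of other cells, so this fit is no test of zone or cell makeup.

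Beyond the 38, lists of related genes were counted in the same fit. The share of tested genes that passed as higher ran from 0% to 11.1% by list, with 4.76% for the other folate genes. Over all tested genes 3.65% passed as higher and 1.98% as lower. The lists are short, and no test was made of these shares. Of 22 further genes of phosphatidylcholine and phosphatidylethanolamine turnover, 2 passed as higher and 0 as lower. Pctp, a phosphatidylcholine transfer protein, had 69.9 ± 10.8 and 88.8 ± 7.44 CPM (a log2 fold change of 0.35 ± 0.07, adjusted p = 0.00685). Sgms2, which moves the choline head group to sphingomyelin, had 103 ± 7.75 and 116 ± 5.63 CPM (0.16 ± 0.04, adjusted p = 0.0198), and its call was lost with library totals and on the rounded FPKM. Pla2g6, a phospholipase, had 60.4 ± 6.13 and 68.0 ± 4.40 CPM and did not pass (adjusted p = 0.0534), though it did without mouse 31, 32 or 77 (down to 0.0106) and in DESeq2 and limma-voom. Among 11 other choline and betaine transporters 7 were tested and 0 passed. Slc22a3, a transporter of organic cations, had a log2 fold change of 0.36 ± 0.11 (adjusted p = 0.0614) and Flvcr2 one of 0.22 ± 0.09 (adjusted p = 0.163). Slc22a3 passed without mouse 32, 33 or 74 (adjusted p down to 0.0348) and in DESeq2.

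Of 12 tested genes of cysteine, taurine and sulfide metabolism 1 passed. Suox, the sulfite oxidase that ends the breakdown of sulfur amino acids, ran from 52.0 to 62.2 CPM in CDAA-HFD and from 64.3 to 76.9 CPM in BLT1i mice, with the groups fully apart. Its log2 fold change was 0.27 ± 0.04 (adjusted p = 0.000291). Suox and Cth both lie on the path from methionine to sulfate. Csad, of taurine synthesis, and Got1, an aspartate aminotransferase, had log2 fold changes of 0.27 ± 0.13 and 0.32 ± 0.17 and did not pass (adjusted p = 0.263 and 0.31).

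Of 12 genes of polyamine synthesis and methionine salvage 1 passed. Sat1, which acetylates spermidine and spermine for export or breakdown, had 99.0 ± 10.96 and 132 ± 9.68 CPM, with 9 of 10 BLT1i mice above every CDAA-HFD mouse (0.42 ± 0.06, adjusted p = 3.54e-05). Odc1, which starts polyamine synthesis, had 68.7 ± 3.28 and 62.4 ± 6.28 CPM (-0.14 ± 0.05) and did not pass (adjusted p = 0.0973), though it did without mouse 72 (adjusted p = 0.0427) and with library totals. Mri1, of methionine salvage, had a log2 fold change of 0.12 ± 0.05 (adjusted p = 0.139) and passed without mouse 74 (adjusted p = 0.0217). Of 9 other methyl users and creatine genes 1 passed. Inmt, which methylates indoles and other amines, had 26.4 ± 7.003 and 40.8 ± 7.69 CPM (0.63 ± 0.14, adjusted p = 0.0101). The creatine transporter Slc6a8 had a log2 fold change of -0.11 ± 0.04 (adjusted p = 0.151).

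Of 21 other folate genes 1 passed, and of 6 tested genes of serine and glycine synthesis 0. Gcsh, a subunit of the glycine cleavage system, had 43.0 ± 2.85 and 48.1 ± 3.99 CPM (0.16 ± 0.05, adjusted p = 0.0421), and its call was lost without any 1 of 15 mice (31, 33, 34, 35, 36, 38, 39, 40, 71, 72, 73, 76, 78, 79 or 80; adjusted p at most 0.0873) and under upper-quartile and library-total scaling. Mmadhc, of cobalamin handling, had a log2 fold change of 0.20 ± 0.08 and Slc25a32, the mitochondrial folate carrier, 0.16 ± 0.08 (adjusted p = 0.143 and 0.274). Gcat, Agxt and Psat1, which make or use glycine and serine, had 0.14 ± 0.07, 0.13 ± 0.07 and 0.31 ± 0.18, and none passed (adjusted p = 0.274, 0.36 and 0.361). With the immediate early score as covariate, the called genes of these lists lost their calls as well. Sat1 then had a log2 fold change of 0.10 ± 0.07 (adjusted p = 0.629), far below its value without the covariate, and Sgms2 one of 0.15 ± 0.08 (adjusted p = 0.502). The folds of the other 4 were larger than without the covariate, with larger SEs. They were 0.52 ± 0.13 for Pctp (adjusted p = 0.0972), 0.32 ± 0.08 for Suox (adjusted p = 0.0789), 0.75 ± 0.26 for Inmt (adjusted p = 0.294) and 0.25 ± 0.09 for Gcsh (adjusted p = 0.265).

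Across the 20 mice, with group means removed, related steps of the pathways were compared in 18 gene pairs, and 9 passed, each with a correlation above 0. The pairs were chosen with earlier results of these data known, so their p-values serve as description. Each p-value is against no correlation, while 62.0% of all 703 pairs among the 38 genes had r above 0. The points share their libraries, and correlations across mice also reflect whatever else differs between livers. Mat1a and Ahcy both act in the methionine cycle, with the methyltransferases between them. They had Pearson's r = 0.847 (permutation p = 2e-05, adjusted p = 0.00027) and Spearman's rho = 0.697 (permutation p = 0.00131, adjusted p = 0.0113). Within groups r was 0.785 in CDAA-HFD and 0.913 in BLT1i mice, and without the 2 mice farthest from the median of Mat1a it was 0.806. Bhmt and Bhmt2 had r = 0.822 (permutation p = 3e-05, adjusted p = 0.00027) and rho = 0.83 (permutation p = 4e-05, adjusted p = 0.00072). Within groups r was 0.876 and 0.725, and without the 2 mice farthest from the Bhmt median 0.773. Of the 5755 different 50-base words of Bhmt transcripts, 10 occur in those of Bhmt2, while 24.1% occur in Gm5096.

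Gamt and Pemt, which spend methyl groups on creatine and phosphatidylcholine, had r = 0.722 (permutation p = 0.00048, adjusted p = 0.00216) and rho = 0.685 (permutation p = 0.00189, adjusted p = 0.0113). Their r was 0.874 in CDAA-HFD and 0.404 in BLT1i mice, and 0.609 without 2 mice. Sardh and Gnmt, which consume and make sarcosine, had r = 0.713 (permutation p = 0.00034, adjusted p = 0.00204) and rho = 0.667 (permutation p = 0.00256, adjusted p = 0.0115), and r was 0.618 and 0.912 within groups and 0.668 without 2 mice. These genes belong to opposite ends of 1 small cycle between glycine and sarcosine. Gnmt and Pemt had r = 0.625 (permutation p = 0.00341, adjusted p = 0.0102) and rho = 0.636 (permutation p = 0.00463, adjusted p = 0.0119), with 0.615 and 0.654 within groups and 0.667 without 2 mice.

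Among folate genes, Aldh1l1 and Ftcd had r = 0.668 (permutation p = 0.00172, adjusted p = 0.00619) and rho = 0.636 (permutation p = 0.00407, adjusted p = 0.0119). Within groups r was 0.733 and 0.615, and without 2 mice 0.704. Both enzymes work on formyl and formimino folates. Mthfd1 and Shmt1 had r = 0.585 (permutation p = 0.00928, adjusted p = 0.0239) and rho = 0.648 (permutation p = 0.0036, adjusted p = 0.0119), with 0.548 and 0.617 within groups and 0.659 without 2 mice. Dmgdh and Sardh, successive dehydrogenases, had r = 0.461 (permutation p = 0.0146, adjusted p = 0.0309) and rho = 0.618 (permutation p = 0.00588, adjusted p = 0.0132), with 0.281 and 0.743 within groups and 0.468 without 2 mice. Bhmt and Cbs, which compete for homocysteine, had r = 0.501 (permutation p = 0.0155, adjusted p = 0.0309), while their rho of 0.509 did not pass (permutation p = 0.0284, adjusted p = 0.0558). Within groups their r was 0.407 and 0.67, and 0.536 without 2 mice.

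The other 9 pairs did not pass. Chdh and Bhmt, which make and use betaine, had r = -0.414 (permutation p = 0.085, adjusted p = 0.139), and Mat1a and Mat2a, the alternative synthetase genes, r = -0.403 (permutation p = 0.0838, adjusted p = 0.139). Both values were below 0 in each group, at -0.541 and -0.209 for the first pair and -0.511 and -0.375 for the other. Without the 2 mice farthest from the median of the first gene, r was -0.207 for Chdh and Bhmt and -0.495 for Mat1a and Mat2a. Cbs and Cth had r = 0.39 (permutation p = 0.123, adjusted p = 0.172). Pcyt1a and Pemt, which lead the alternative routes to phosphatidylcholine, had a pooled r of 0.258 (permutation p = 0.286, adjusted p = 0.343), made of 0.806 in CDAA-HFD mice and -0.454 in BLT1i mice; the difference between groups was not tested. Bhmt and Dmgdh, Gnmt and Mat1a, Bhmt and Mtr, Chka and Pcyt1a, and Etnk2 and Pcyt2 had r from -0.0518 to 0.356.

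Over all 703 pairs among the 38 genes, the median r was 0.126 and 62.0% were above 0, beside -0.00547 and 49.4% for a gene of the 38 with any other tested gene. Of these 703 pairs 3.7% reached r of 0.7, against 0.787% of the others, as a description. The highest was Aldh7a1 and Shmt2 at 0.896, followed by Sardh and Aldh1l1 at 0.873. These genes, with Gamt, Pemt and Ftcd, come from 3 different roles, and the values among several of them were high, such as 0.814 for Gamt and Aldh1l1 and 0.789 for Sardh and Pemt. The lowest were Dmgdh and Slc44a2 at -0.729 and Mat2b and Lpcat3 at -0.712. Bhmt2 and Dmgdh, which share a start region, had r = 0.43, a lower value than the 0.822 of Bhmt2 with Bhmt. The called gene Chdh had a median r of -0.03 with the other 37 genes. With the immediate early score, r ran from -0.593 for Chpt1 and -0.536 for Shmt2 to 0.542 for Mat1a. Among the 7 called genes it was 0.397 for Cth and 0.379 for Chkb, whose folds were near 0 with that score as covariate. It was 0.116 for Cept1, -0.04 for Chdh, -0.118 for Pcyt2, -0.203 for Lpcat3 and -0.362 for Mat2a. The fit with the covariate rests on this same relation within groups. These r values are therefore no separate observation beside the folds of that fit.

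**Figure D4:**
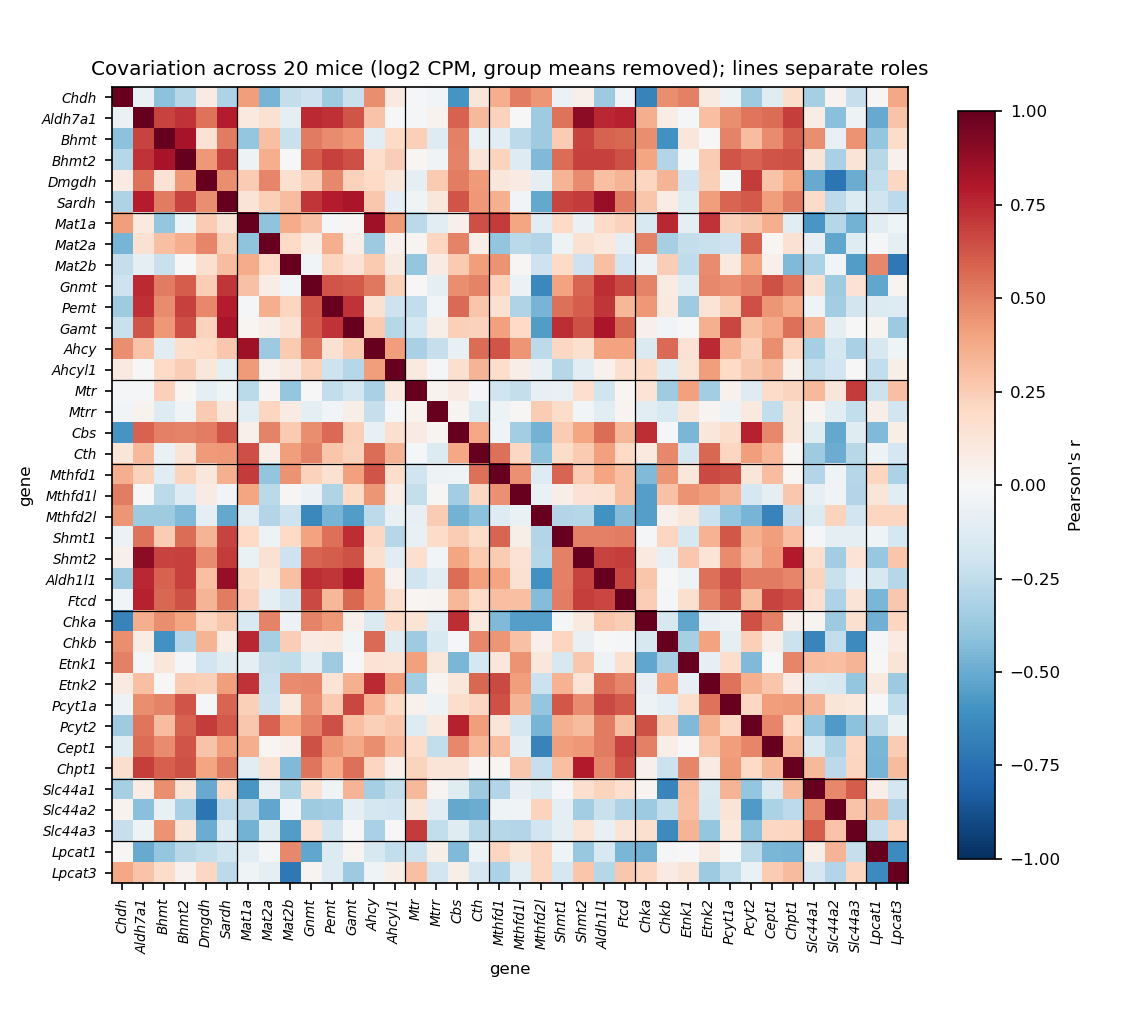
Pearson's r between the 38 genes across 20 mice (log2 CPM with group means removed), on a colour scale from -1 (blue) to 1 (red), with lines between roles. Red cells gather around Sardh, Aldh7a1, Gnmt, Gamt, Aldh1l1 and Shmt2 (Aldh7a1 with Shmt2 0.896). Blue cells lie along Mthfd2l (with Cept1 -0.665) and Slc44a2 (with Dmgdh -0.729).

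**Figure D5:**
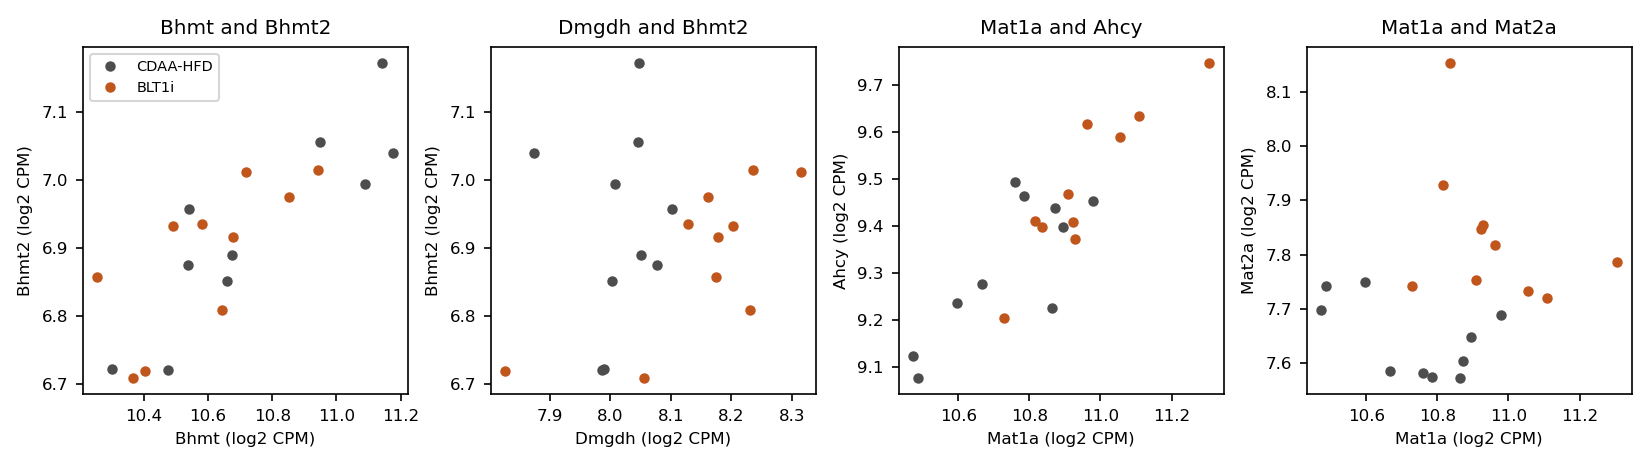
Log2 CPM in each of 20 mice for Bhmt and Bhmt2, Dmgdh and Bhmt2, Mat1a and Ahcy, and Mat1a and Mat2a, CDAA-HFD mice in grey and BLT1i mice in orange. With group means removed r is 0.822, 0.43, 0.847 and -0.403, and on the Mat1a axis the groups overlap widely, while on the Mat2a axis 7 BLT1i mice are above every CDAA-HFD mouse.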

How the data were processed

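The 38 genes, their roles, the companion lists, the 18 gene pairs and the alternatives were chosen with earlier results of these data known. Each mouse had 2 sequencing lanes in the labels and 1 column in the tables, and the mouse was the replicate. The sources used here do not say how the lanes were merged. The libraries were stranded and depleted of ribosomal RNA, per the labels' protocols, although the molecule label reads polyA RNA. The genome was GRCm39, per the submitters' processing notes. Not given in the sources used here are the aligner, the counting program, its use of strand and its way with reads that fit several genes.

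The authors deposited whole-number counts per protein-coding gene, and these gave every test. The authors also deposited FPKM (fragments per length and depth) rounded to whole numbers, which were treated as a score and used to compare levels between genes and in alternatives. Of 21500 gene identifiers, 21457 were matched to a symbol, and the 43 without one held 0.0078% of the counts. No column of values was left unmapped (0 columns).

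Total counts were 20994073 to 27456678 (CDAA-HFD) and 18467060 to 26078285 (BLT1i). In a chi-square test each of the 90 within-group pairs of mice differed by more than counting noise (6.34 to 32.1 per degree of freedom), so each mouse counted once. Tests across all genes used edgeR 4.0.16 in R 4.3.3 (filterByExpr, TMM scaling, robust quasi-likelihood F-test, two-sided, no covariate), fitted on all 13993 genes that passed the filter. Adjusted p is Benjamini-Hochberg over these genes, and a gene passed at 0.05 or less. Each SE was computed as the absolute log2 fold change over the root of F, and intervals cover 95%. CPM values are TMM-scaled. The procedure was tested on simulated data first. Covariation used log2 CPM with a prior count of 2, with group means removed. Its p-values come from a two-sided permutation test that exchanged mice within groups (100000 resamples, smallest possible p 1e-05), adjusted over the 18 pairs.

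The text names all 38 genes and, from each companion list, up to 3 tested genes with the lowest p, some of which are not reported here. Alternatives were RLE, upper-quartile and library-total scaling, no filter beyond 1 count, 1 CPM in 10 mice, DESeq2 1.42.0, limma-voom (limma 3.58.1), log2 of the rounded FPKM with a pseudocount of 1 or 0.1, with and without a minimum mean of 1, a score of immediate early genes or of hepatocyte markers as covariate, thresholds of 0.1 and 0.01, and each of the 20 mice left out in turn. Promoter sequences are from RefSeq on GRCm38.p6, a different build from that of the counts, and were used as sequence alone.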

Additional observations from a re-analysis of the deposited data

Results flagged for a closer look

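Of 76 sets of 10 values (38 genes in each group), 8 had a mouse whose gap to its nearest neighbour was over 0.466 of the whole range. Chance gives about 1 in 20 sets for normally distributed values. The sets come from the same 20 mice and many of the genes covary, so the 8 were not tested against that rate. The 8 values came from 5 mice. In CDAA-HFD mouse 36, Lpcat3 was the highest of its group at 134.5 CPM (next 113 CPM) and Pcyt2 the lowest at 201 CPM (next 225 CPM). In CDAA-HFD mouse 32, Cept1 was the highest at 61.4 CPM (next 56.9 CPM) and Pemt the highest at 195 CPM (next 166 CPM). CDAA-HFD mouse 34 had the lowest Dmgdh at 234.5 CPM (next 254 CPM). CDAA-HFD mouse 37 had the lowest Mtr at 31.7 CPM (next 36.3 CPM). In BLT1i mouse 72, Mat2a was the highest of its group at 285 CPM (next 244 CPM) and Chka the highest at 175 CPM (next 125 CPM). What sets these mice apart was not tested.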

How the results depend on the processing

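No gene among the 38 that passed changed direction under any alternative, and none passed as lower. The number that passed as higher was 7, with 4 under scaling by library totals alone, 3 at a threshold of 0.01 and 0 with the immediate early score as covariate. With each mouse left out in turn it ran from 5 to 8. RLE scaling and a filter of 1 CPM in 10 mice gave 7, upper-quartile scaling, no filter and limma-voom gave 6, the rounded FPKM 5, DESeq2 9 and the hepatocyte score as covariate 10. Over all genes, the split of 511 higher and 277 lower became 391 and 540 with library totals and 443 and 401 with upper-quartile scaling. Library totals moved the median log2 fold change of all genes from -0.01 to -0.04. Of the 18 gene pairs 9 passed over all 20 mice, 4 in CDAA-HFD mice alone and 3 in BLT1i mice alone, where each fit holds 10 mice instead of 20. The 4 were Gamt and Pemt, Bhmt and Bhmt2, Mat1a and Ahcy, and Pcyt1a and Pemt. The pair Pcyt1a and Pemt did not pass over all 20 mice. The 3 were Mat1a and Ahcy, Sardh and Gnmt, and Dmgdh and Sardh, so that only Mat1a and Ahcy passed in each group alone. No paired analysis was possible because the groups share no mouse numbers. Counting error is small at this depth for most of the 38 genes, and differences between mice set the precision. Mthfd1l and Mthfd2l, under 10 CPM, carry the largest counting error. The causes of calls that moved were not tested.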
